A study of Mus musculus with 6 samples.

Results

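The Hox genes of the mouse encode homeodomain transcription factors and lie in 4 clusters, Hoxa on chromosome 6, Hoxb on chromosome 11, Hoxc on chromosome 15 and Hoxd on chromosome 2. A list of 38 of them was followed here in embryonic stem (ES) cells with and without HIRA, a chaperone that places the histone variant H3.3 into chromatin outside replication. Members were the probe sets (groups of probes that report one transcript) whose annotation gives exactly 1 gene symbol, that of a listed gene. This rule found 37 of the 38 genes, each with 1 probe set, among 35557 probe sets in the table. Hoxb8 had only a probe set shared with Hoxb7, which read 3.27, 3.06 and 3.06 on the WT arrays and 2.74, 3.29 and 3.66 on the Hira-null arrays and was assigned to neither gene.

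RNA of undifferentiated mouse ES cells was hybridised to 6 whole-transcript arrays (Affymetrix Mouse Gene 1.0 ST). All 6 were labelled as biological replicates. Of these, 3 held the wild-type parental line w9.5 (WT) and 3 held Cl34, a Hira-/- ES cell line (Hira-null), so the genotype was represented by 1 clone. Both lines grew in the same medium with fetal calf serum and ESGRO, a preparation of leukaemia inhibitory factor that keeps ES cells undifferentiated, and the labels name no further treatment and no feeder layer. Cells were collected at differing confluence, which no label ties to an array. Whether the replicates were separate cultures is not stated, and the p-values then cover only array-to-array spread, part of which may be technical.

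Hox genes give cells their position along the head-to-tail axis of the embryo. Their order within a cluster follows the order in which they are switched on and the body level at which they act, from anterior genes at one end to posterior genes at the other. In undifferentiated ES cells the clusters are known to be held at low activity by Polycomb complexes, which mark histone H3 with methyl groups at lysine 27, while Trithorax complexes mark the same promoters at lysine 4. Retinoic acid, acting through its nuclear receptors, is a classical inducer of anterior Hox genes, and HOX proteins bind DNA together with TALE cofactors such as PBX and MEIS proteins.

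Promoter sequence is shown first because Polycomb complexes in ES cells are known to collect at stretches rich in the dinucleotide CG. Promoter windows of 300 bases from RefSeq (GRCm38.p6) were matched by symbol for 22 of the 38 listed genes, which had 24 windows. The median window held 14.5 CG dinucleotides and 57.7% G and C, and the medians over all 32851 windows of the table were 7.0 and 52.7%. Windows were found for 4 genes whose WT and Hira-null arrays did not overlap. The 250 bases before the start held 31 CG dinucleotides at Hoxd13, 28 at Hoxa5 and 14 at Hoxb4. Hoxd11 had a pair of annotated starts, with 2 and 20 CG dinucleotides before them. Below are the 250 bases for 3 of these genes, read 5′ to 3′ with each CG in capitals, chosen because Hoxd13 and Hoxd11 were higher and Hoxb4 lower on every Hira-null array. They show that CG content differed even between the starts of 1 gene.
Hoxd13, chr2:74667975-74668224, plus strand: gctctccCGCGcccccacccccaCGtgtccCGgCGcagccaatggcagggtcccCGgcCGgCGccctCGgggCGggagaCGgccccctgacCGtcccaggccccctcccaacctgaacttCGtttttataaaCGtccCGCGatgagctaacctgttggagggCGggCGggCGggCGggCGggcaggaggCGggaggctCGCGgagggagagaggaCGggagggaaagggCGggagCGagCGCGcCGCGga
Hoxd11, first window, chr2:74679308-74679557, plus strand: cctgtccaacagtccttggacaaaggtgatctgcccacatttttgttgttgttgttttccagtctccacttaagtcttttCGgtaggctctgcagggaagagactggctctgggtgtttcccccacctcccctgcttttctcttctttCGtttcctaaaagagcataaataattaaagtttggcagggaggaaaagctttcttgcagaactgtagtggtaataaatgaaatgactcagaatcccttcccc
Hoxd11, second window, chr2:74682073-74682322, plus strand: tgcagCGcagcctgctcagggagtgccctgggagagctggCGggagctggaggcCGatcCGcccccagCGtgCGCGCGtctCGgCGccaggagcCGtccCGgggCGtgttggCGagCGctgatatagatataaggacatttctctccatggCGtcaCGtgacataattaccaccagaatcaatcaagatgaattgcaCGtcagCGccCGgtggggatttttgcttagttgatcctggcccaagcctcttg
Hoxb4, chr11:96318017-96318266, plus strand: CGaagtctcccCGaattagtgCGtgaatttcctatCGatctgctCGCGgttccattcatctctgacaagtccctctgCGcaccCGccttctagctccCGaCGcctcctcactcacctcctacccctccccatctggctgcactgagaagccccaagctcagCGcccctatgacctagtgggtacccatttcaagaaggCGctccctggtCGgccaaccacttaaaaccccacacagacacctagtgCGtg
The letters TGATNNAT, a composite site of HOX and PBX proteins, were searched on both strands and occurred in 4 of the 24 windows (Hoxa2, Hoxb1, Hoxb8 and the second window of Hoxd11) and in 8.85% of all windows. Exact direct repeats of AGGTCA, a site of retinoic acid receptors, were searched with 5 or with 2 bases between the copies. They occurred on either strand in 0 of the 24 windows and each in 0.00913% of all. With strings this rare, 0 of 24 windows carries no information. TATAAA, the core of a TATA box, occurred in 4 of the 24 windows (Hoxa10, Hoxb8, Hoxd13 and Hoxd4) and in 13.6% of all. A match describes the letters and is not evidence of binding.

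The clusters also hold microRNA genes, among them the miR-10 and miR-196 families, known to target Hox transcripts. Their mature sequences from RefSeq are given 5′ to 3′ with the seed (bases 2 to 8) in capitals, because the seed groups them into families.
miR-10a-5p: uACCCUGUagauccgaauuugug
miR-10b-5p: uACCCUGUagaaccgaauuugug
miR-196a-5p: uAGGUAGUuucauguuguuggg
miR-196b-5p: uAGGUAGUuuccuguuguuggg
miR-615-3p: uCCGAGCCugggucucccucuu
Within a family the members differ outside the seed, by U12A from miR-10a-5p to miR-10b-5p and by A12C from miR-196a-5p to miR-196b-5p, counted from the 5′ end. The arrays carried probe sets for the genes of these microRNAs and did not measure the mature forms as such. Mir10a, in the Hoxb cluster, read 2.29, 1.95 and 1.95 on the WT arrays and 2.1, 1.99 and 2.06 on the Hira-null arrays. Mir10b, in the Hoxd cluster, read 2.13, 2.16 and 2.03 on WT and 2.11, 2.03 and 2.04 on Hira-null. Both stayed far below 3.78, the 30th percentile of all values in the table, which served as the filter on low values.

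As a check of the labels, Hira itself read 7.49, 7.86 and 7.83 on the WT arrays and 7.4, 7.05 and 6.81 on the Hira-null arrays. The groups did not overlap, but the difference of -0.64 (log2, SE 0.19, 3 arrays a group) was not called by limma (adjusted p = 0.352). Where in Hira the deletion lies, and whether these probes fall within it, is not given in the labels, so this check does not settle the genotype. The pluripotency factors Pou5f1 (10.91 to 11.58 over the 6 arrays) and Nanog (10.7 to 11.12) marked the cells as the ES cells the labels name. Array medians lay between 4.93 and 5.02. Hira-null array 3 stood apart on the first principal component, which held 41.7% of the variance, at 65.6 against -32 to 1.95 for the other 5 arrays.

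Hox signals were low in both lines. Gene means over the 6 arrays ran from 2.89 to 5.67 in deposited log2 units. Of the 37, 30 lay below the median of such means over all 35557 probe sets, 4.97. The median over the 37 genes was 4.19, against 6.03 over the 25142 probe sets that passed the filter (at least 3 of 6 arrays above 3.78). Of the members, 31 passed the filter, 27 were above it on all 6 arrays and 4 on none. Hoxa2, Hoxa3, Hoxa5, Hoxc6, Hoxc11 and Hoxd8 did not pass and were not tested. A probe set's brightness also depends on its probes, so levels are compared between arrays and not between genes. In bulk RNA, a few cells with much of a transcript cannot be told apart from many cells with little.

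**Figure D1:**
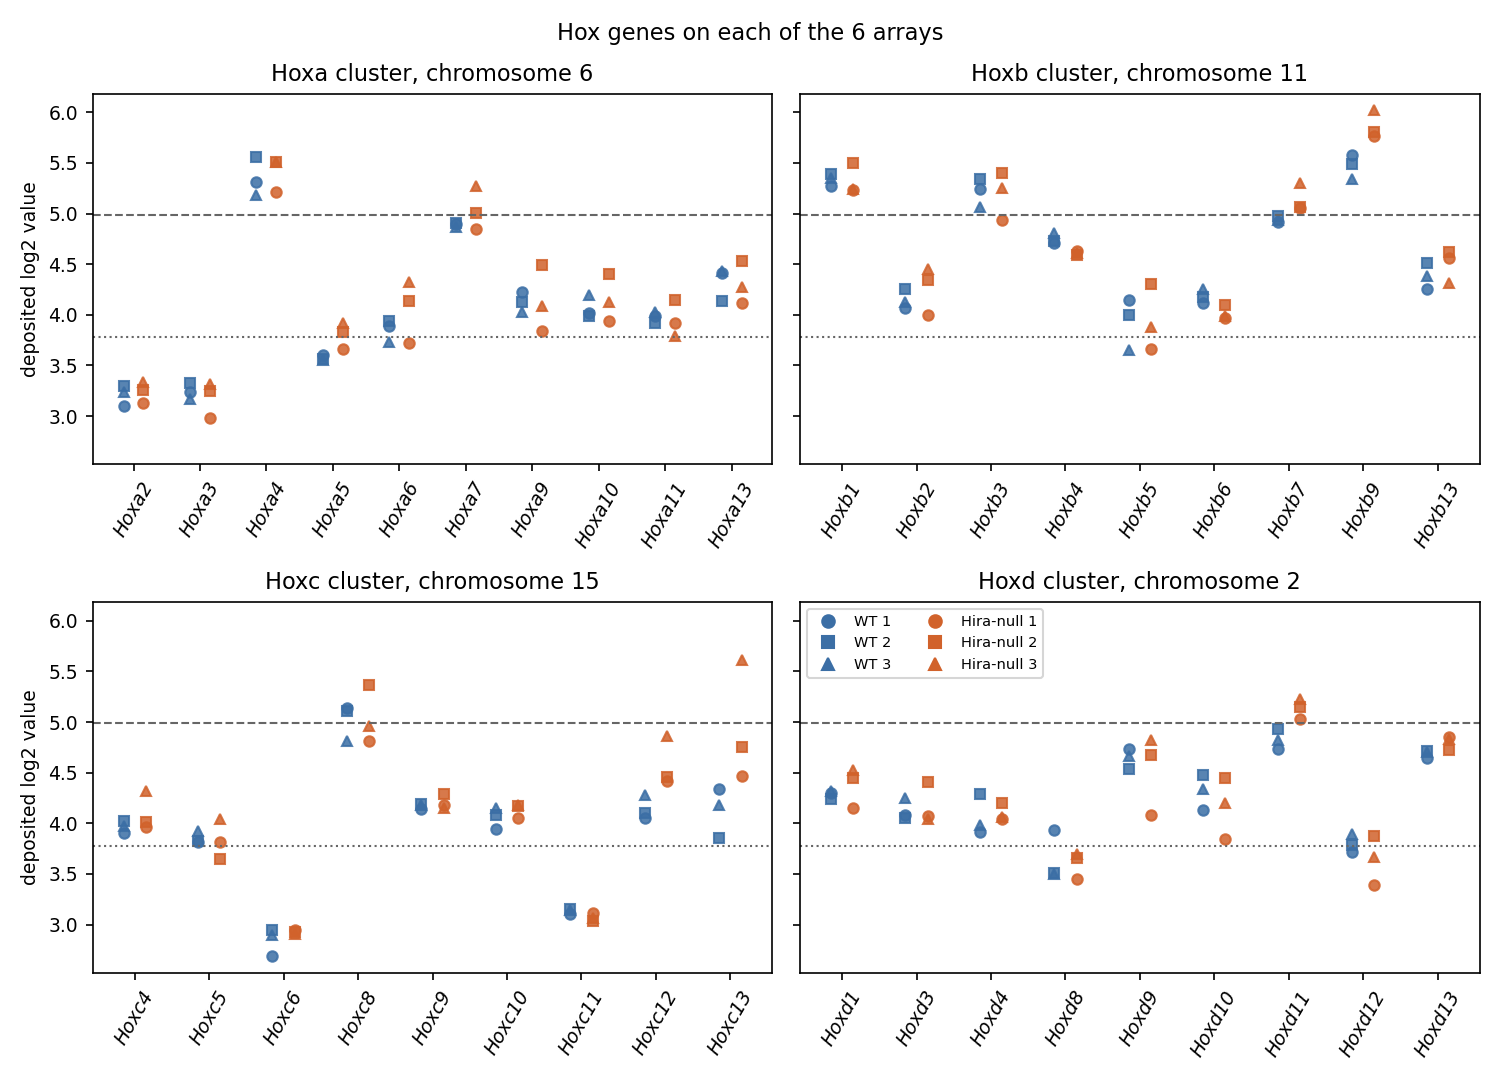
Deposited log2 value (vertical axis) of 37 Hox genes (horizontal axis, in paralog order) on each of the 6 arrays, 1 panel per cluster, with blue for WT, orange for Hira-null and a marker shape for each replicate number. The dotted line is the filter at 3.78 and the dashed line the median of all values in the table, 4.99. Most points lie between the lines, and the highest single value is 6.02, for Hoxb9 on Hira-null array 3.

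The comparison of the lines asks whether loss of HIRA goes with altered Hox expression in undifferentiated cells. No Hox gene was called: 0 of the 31 tested had an adjusted p under 0.05 (limma, Benjamini-Hochberg over 25142 probe sets), and over all probe sets 1 was called, 0.00398%. At an unadjusted p under 0.05 there were 4 of 31, all higher in Hira-null (Hoxb9, Hoxc12, Hoxc13 and Hoxd11), where 4.06% of all probe sets tested were higher and 6.06% lower, 10.1% together. The differences (Hira-null minus WT) ran from -0.16 to 0.82 with a median of 0.04, and the median over all 15199 genes tested was -0.01. The sign was positive for 24 genes and negative for 13, and 36 of 37 differed by less than 1.5-fold.

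The intervals describe the deposited values only. They cover array-to-array spread with 1 clone, so they do not bound the change in the transcripts themselves. The 95% interval of the difference lay within ±1 log2 unit, a factor of 2 either way, for 30 of the 31 genes tested, and Hoxc13 was the exception with an upper bound of 1.53. Intervals excluded 0, before any adjustment for the number of tests, for 4 genes. From centre to bound an interval spanned 0.34 at the median, and the median standard error was 0.15.

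In 9 of the 37 genes (24.3%) the 3 WT arrays and the 3 Hira-null arrays did not overlap. Over all 35557 probe sets that share was 13.8%, made up of 6.82% higher and 7.03% lower in Hira-null. Over the 25142 probe sets past the filter it was 15.3%, made up of 7.09% and 8.17%. Of the Hox genes, 7 were higher (Hoxa5, Hoxb7, Hoxb9, Hoxc12, Hoxc13, Hoxd11 and Hoxd13) and 2 were lower (Hoxb4 and Hoxb6). The count of 7 moved to 12 without Hira-null array 1, where 12.6% of all probe sets were higher in this sense. Without Hira-null array 2 the count of 2 moved to 4, with 14.1% of all probe sets lower.

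**Figure D2:**
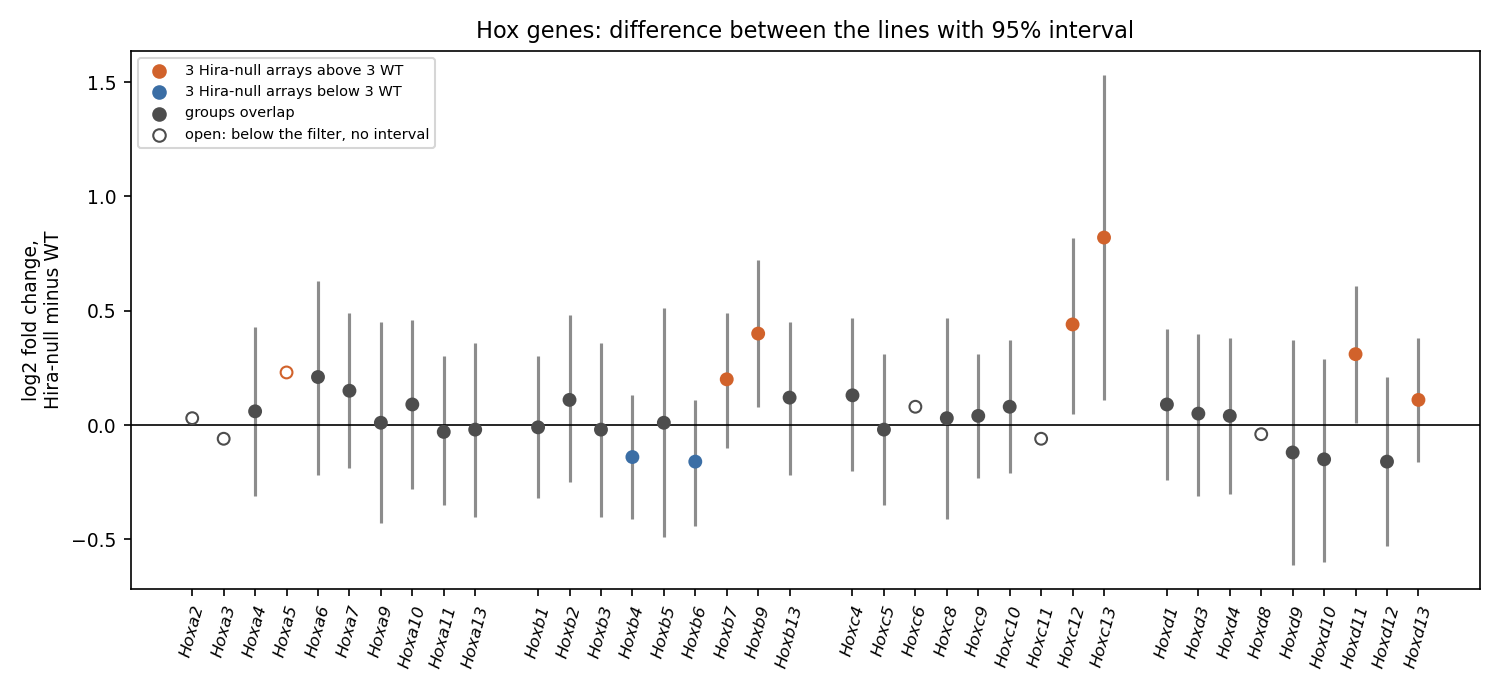
Difference Hira-null minus WT on the log2 scale (vertical axis) for 37 Hox genes in cluster order, with bars for the 95% interval from limma. Orange points have all 3 Hira-null arrays above all 3 WT arrays, blue points the reverse, and open points are below the filter and carry no interval. Most points lie close to 0, and the highest is Hoxc13 at 0.82.

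By position in the cluster, the non-overlapping higher genes were mainly at the posterior end. Of 16 posterior genes (paralog groups 9 to 13), which pattern the trunk, tail and limbs, 5 were higher without overlap and 0 lower, where 6.82% of all probe sets were higher and 7.03% lower, and the median difference was 0.06. Among 14 central genes (groups 4 to 8) 2 were higher and 2 lower, with a median of 0.05. None of the 7 anterior genes (groups 1 to 3), which pattern the hindbrain and its neighbourhood, separated the lines, and their median was 0.03. Without Hira-null array 1 the medians were 0.10 for posterior and 0.10 for anterior genes. Without Hira-null array 2 they were -0.02 and -0.07, and without WT array 1 the anterior median was -0.01. No test compared these classes with each other.

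The posterior gene with the largest difference was Hoxc13, which acts in hair and nail formation. Hoxc13 read 4.34, 3.85 and 4.18 on the WT arrays and 4.47, 4.75 and 5.61 on the Hira-null arrays. Hira-null array 3 alone was more than 0.5 above the next array, and the lowest Hira-null array lay only just above the highest WT array. The difference was 0.82 (1.77-fold, SE 0.30, 95% interval 0.11 to 1.53, unadjusted p = 0.0301, adjusted p = 0.424), and 0.49 without Hira-null array 3.

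Its neighbour Hoxc12, another member of the posterior end of the Hoxc cluster, read 4.05, 4.1 and 4.28 on WT and 4.42, 4.46 and 4.86 on Hira-null. As with Hoxc13, Hira-null array 3 was the highest and no array of one line reached into the other. The difference was 0.44 (1.35-fold, SE 0.16, 95% interval 0.05 to 0.82, adjusted p = 0.424). Hoxc11, next in the cluster, stayed below the filter at 3.1, 3.15 and 3.14 on WT and 3.11, 3.03 and 3.06 on Hira-null. Hoxc10 and Hoxc9, further along, differed by 0.08 and 0.04.

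The central Hoxc genes did not separate. Hoxc8, which patterns the thoracic region, read 5.14, 5.11 and 4.81 on WT and 4.81, 5.37 and 4.96 on Hira-null, with overlapping groups and a difference of 0.03 that took the other sign without WT array 3 (-0.08) or without Hira-null array 2 (-0.13). Hoxc4, Hoxc5 and Hoxc6 differed by 0.13, -0.02 and 0.08. The 9 Hoxc genes together had a median of 0.08, against 0.03 over 617 tested genes of chromosome 15.

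Hoxb9 was the posterior member of the Hoxb cluster that separated the lines. It reads out trunk identity at the thoracic level, and stood at 5.58, 5.49 and 5.34 on WT and at 5.77, 5.81 and 6.02 on Hira-null. All Hira-null arrays were above all WT arrays, and the spread within each line was small (SD 0.12 and 0.13, n = 3). The difference was 0.40 (1.32-fold, SE 0.13, 95% interval 0.08 to 0.72, unadjusted p = 0.0218, adjusted p = 0.403). Hoxb13, the most posterior gene of the cluster, overlapped between the lines with a difference of 0.12.

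The central Hoxb genes separated in both directions. Hoxb7 read 4.92, 4.98 and 4.94 on WT and 5.06, 5.07 and 5.3 on Hira-null, a difference of 0.20 (adjusted p = 0.673) that was 0.12 without Hira-null array 3. Hoxb6, its neighbour, read 4.12, 4.18 and 4.25 on WT and 3.97, 4.1 and 3.99 on Hira-null, a difference of -0.16 (adjusted p = 0.721). Hoxb4, a gene known for its role in blood stem cells, read 4.71, 4.73 and 4.81 on WT and 4.63, 4.59 and 4.61 on Hira-null, a difference of -0.14 (adjusted p = 0.759). These 3 separations rest on gaps of 0.08 or less between the nearest arrays, and Hoxb5 between them overlapped fully, with a difference of 0.01.

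At the anterior end of the cluster, Hoxb1, a gene of the hindbrain that responds early to retinoic acid, read 5.27, 5.39 and 5.35 on WT and 5.23, 5.5 and 5.24 on Hira-null. Its groups overlapped and the difference of -0.01 turned to 0.03 without Hira-null array 1 or 3 and to 0.01 without WT array 2. Hoxb2 and Hoxb3 differed by 0.11 and -0.02.

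The Hoxb cluster sits on a chromosome whose genes were mostly lower in the Hira-null clone. Of 1351 tested genes on chromosome 11, 1104 were lower and 236 higher, with a median of -0.24, and this median was -0.09, -0.27 and -0.41 within mean-level classes low, middle and high (classes of equal size over all genes tested). The 9 Hoxb genes had a median of 0.01, with 5 higher and 4 lower, and 8 of them lay in the low class. Their median was 0.11 without Hira-null array 1 and -0.10 without Hira-null array 2. All 12 listed genes that flank the cluster on either side were lower, with a median of -0.38. Among these flanking genes, Ube2z, which encodes a ubiquitin-conjugating enzyme, read 9.56, 9.54 and 9.47 on WT and 9.05, 8.94 and 8.67 on Hira-null (difference -0.64, adjusted p = 0.233). Snx11, Nfe2l1 and Skap1 also separated the lines, by -0.41, -0.36 and -0.25, and Snf8 differed by -0.51 with overlap. Without overlap 4 of the 12 were lower and 0 higher (33.3%). That share was 35% of tested genes on chromosome 11 and 13.8% of all probe sets. Skap1 read 4.18, 4.47 and 4.44 on WT and 4.05, 4.17 and 4.13 on Hira-null, within the range of the Hox genes. The flanking genes are mostly brighter than the Hox genes, and the difference between the Hoxb genes and their neighbours was not tested.

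**Figure D3:**
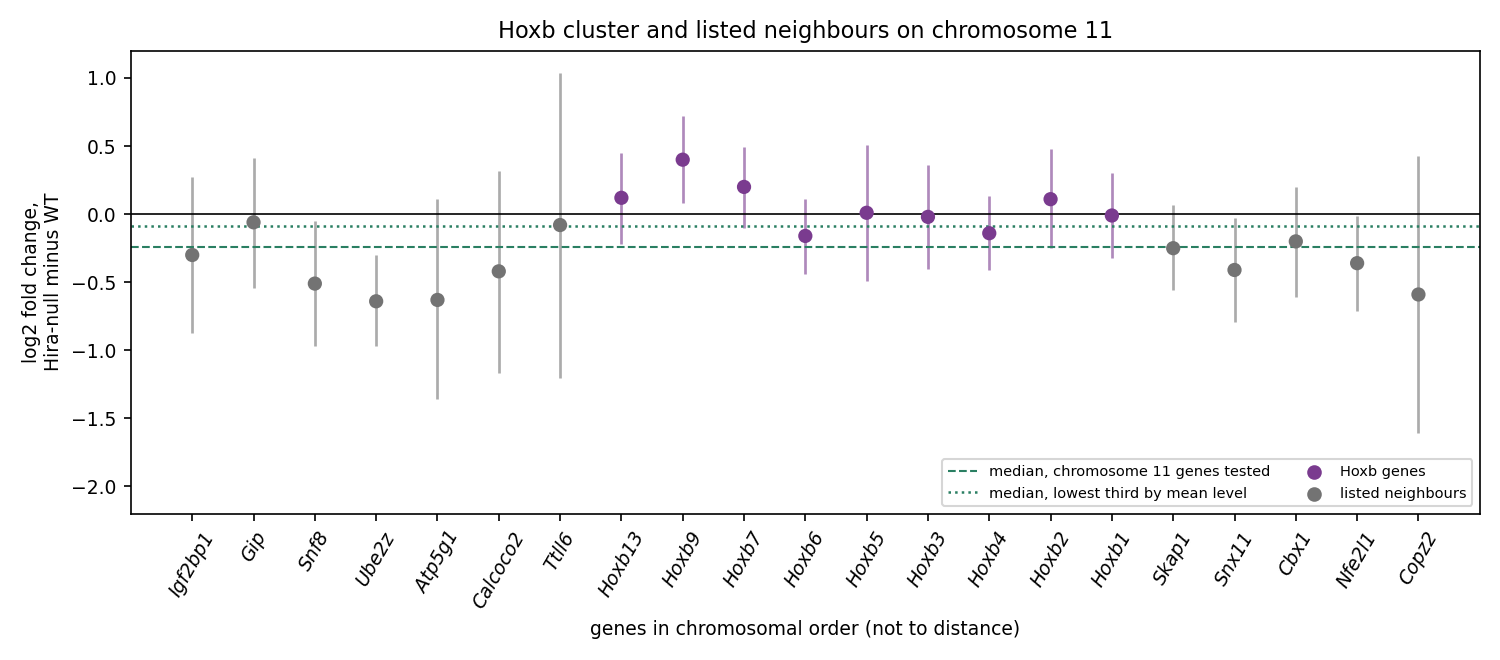
Difference Hira-null minus WT on the log2 scale (vertical axis) with 95% intervals for 9 Hoxb genes (purple) and 12 listed neighbours (grey), in chromosomal order and not to distance. The dashed line is the median of 1351 tested genes of chromosome 11 (-0.24) and the dotted line that of the class of low mean level (-0.09). All 12 neighbours lie below 0, and the Hoxb genes lie on both sides of it.

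The flanking genes of the other clusters did not lean downward. Medians were 0.14 for 5 neighbours of Hoxa, 0.05 for 7 of Hoxc and 0.02 for 6 of Hoxd. Beside Hoxa 4 were higher and 1 lower, beside Hoxc 6 and 1, and beside Hoxd 3 and 3. Beside Hoxa, Tax1bp1 read 8.46, 8.64 and 8.57 on WT and 9.01, 8.96 and 8.85 on Hira-null, and Snx10 read 6.91, 6.75 and 6.91 on WT and 6.43, 6.45 and 6.26 on Hira-null. These neighbours thus separated in opposite directions (0.38 and -0.48), and neither was called (adjusted p = 0.373 and 0.295). Calcoco1, beside Hoxc, was 7.27, 7.25 and 7.46 on WT and 7.62, 7.67 and 7.97 on Hira-null (0.43, adjusted p = 0.408).

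In the Hoxd cluster the posterior genes, which shape the limbs and the genital tubercle, gave 2 separations. Hoxd11 read 4.73, 4.93 and 4.82 on WT and 5.03, 5.15 and 5.23 on Hira-null, all Hira-null arrays lying above all WT arrays. The difference was 0.31 (1.24-fold, SE 0.13, 95% interval 0.01 to 0.61, unadjusted p = 0.0431, adjusted p = 0.474). Hoxd13, a gene of digit formation at the end of the cluster, read 4.65, 4.71 and 4.7 on WT and 4.85, 4.72 and 4.83 on Hira-null. Here the gap between the lines was 0.01, and the difference of 0.11 was not called (adjusted p = 0.826).

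Between them, Hoxd12 read 3.72, 3.79 and 3.89 on WT and 3.39, 3.87 and 3.67 on Hira-null. Its groups overlapped, with a difference of -0.16 (adjusted p = 0.823) that was -0.03 without Hira-null array 1. Hoxd10 and Hoxd9 also had negative differences, -0.15 and -0.12, and in both Hira-null array 1 was the lowest of the 6 arrays. The remaining Hoxd genes (Hoxd1, Hoxd3, Hoxd4 and Hoxd8) differed by -0.04 to 0.09. The cluster's median was 0.04, with 0.09 without Hira-null array 1 and -0.07 without Hira-null array 2. Over 1208 tested genes of chromosome 2 the median was 0.02, and -0.01 in the class of low mean level. The annotated spans of Hoxd10 and Hoxd11 overlap, as do those of Hoxd3 and Hoxd4, of Hoxb3 and Hoxb4, and of Hoxa3 with Hoxa4, Hoxa5 and Hoxa6, so signals of such pairs need not be separate.

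In the Hoxa cluster 1 of 10 genes separated the lines. Hoxa5, which acts in the lung and the neck, was this member, at 3.6, 3.56 and 3.55 on WT and 3.66, 3.83 and 3.92 on Hira-null. Most of these values lie below the filter, and the difference of 0.23 was not tested. Hoxa4 read 5.31, 5.56 and 5.18 on WT and 5.21, 5.51 and 5.51 on Hira-null, a difference of 0.06 (adjusted p = 0.946) that became -0.02 without WT array 3. Hoxa7 read 4.9, 4.91 and 4.87 on WT and 4.85, 5.01 and 5.27 on Hira-null (0.15, adjusted p = 0.812), with Hira-null array 1 the lowest and array 3 the highest of all 6, and 0.04 without array 3.

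The anterior gene Hoxa3, which acts in thymus and parathyroid formation, was below the filter at 3.24, 3.33 and 3.17 on WT and 2.98, 3.25 and 3.32 on Hira-null. Its difference of -0.06 was 0.04 without Hira-null array 1. Hoxa2 differed by 0.03 and Hoxa6 by 0.21, both with overlapping groups. The posterior Hoxa genes Hoxa9, Hoxa10, Hoxa11 and Hoxa13 differed by 0.01, 0.09, -0.03 and -0.02. The 10 Hoxa genes had a median of 0.05, with 0.16 without Hira-null array 1 and -0.01 without Hira-null array 2. Over 727 tested genes of chromosome 6 the median was 0, and -0.01 in the class of low mean level.

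Hira-null array 1 differed from the other Hira-null arrays by more than the median difference between the lines. From Hira-null array 1 to array 2, 32 of the 37 Hox genes were higher, with a median difference of 0.21, where 50.5% of all probe sets tested were higher. Array 3 exceeded array 1 in 29 of 37 genes, with a median difference of 0.22, where 51.4% of all probe sets tested were higher. Array 1 was the lowest of the 6 arrays for 16 Hox genes, and array 3 was the highest for 15. The like shares over all probe sets were not counted, and array 3 stood apart on the first principal component. These 2 counts are therefore not shown to be particular to Hox genes. Between WT arrays the medians were smaller, 0.05 from array 1 to 2, 0.04 from array 1 to 3 and -0.04 from array 2 to 3.

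Taken as the deviation of each gene from its mean over the 6 arrays, the median over 37 Hox genes was -0.068, -0.010 and -0.045 on the WT arrays. It was -0.098, 0.130 and 0.075 on the Hira-null arrays, so that the lowest and the highest array belonged to the same line. In the Hoxa cluster 0 of 10 genes were above their mean on Hira-null array 1 and 10 of 10 on array 2. Array 2 was also above the mean for 14 of 16 posterior and 7 of 7 anterior genes. Over all 15199 genes tested, 6799 were above their mean on Hira-null array 1 and 7872 on Hira-null array 2. Hox genes on one array share its RNA and labelling, so they are not separate replicates of such a shift. Whether confluence or any other property of the cultures moved with it was not tested.

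**Figure D4:**
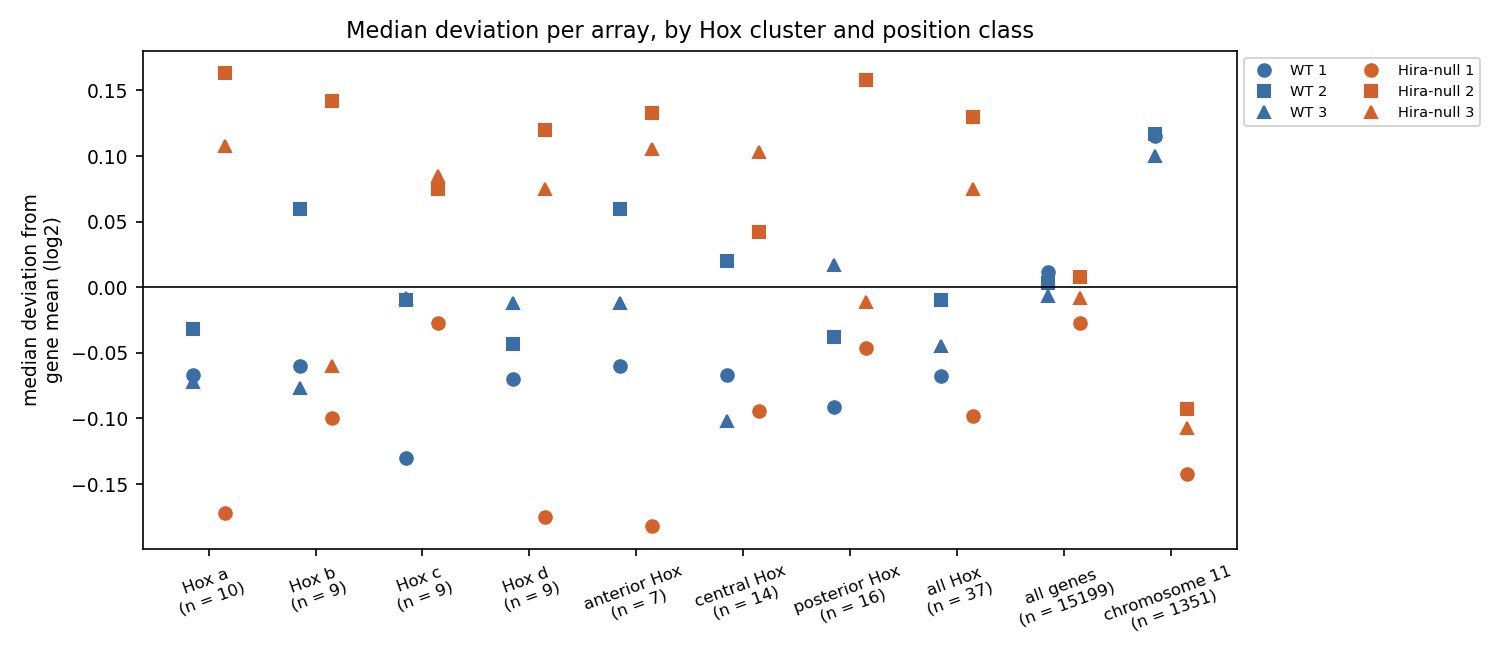
Median over genes of the deviation from each gene's mean over 6 arrays (vertical axis, log2), for each Hox cluster and position class, all Hox genes, all genes tested and the tested genes of chromosome 11. Blue marks WT and orange Hira-null, with a marker shape for each replicate number. For all Hox genes, Hira-null array 1 lies lowest at -0.10 and Hira-null array 2 highest at 0.13, whereas on chromosome 11 the 3 WT arrays lie above the 3 Hira-null arrays.

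Other transcripts of the clusters gave no call either. Of 18 listed noncoding RNA genes 10 had a probe set of their own and 2 passed the filter. Mir615, inside the Hoxc cluster, was the brighter of these at 6.52, 6.93 and 6.68 on WT and 6.84, 6.99 and 6.85 on Hira-null (0.18, adjusted p = 0.758), with overlapping groups. Hoxd3os1, antisense to Hoxd genes, had a pair of probe sets that disagreed. The one that passed the filter differed by 0.18 (adjusted p = 0.698) with overlap, and the other, below the filter, read 3.63, 3.64 and 3.66 on WT and 3.48, 3.5 and 3.45 on Hira-null (-0.17). Mir196a-1, Mir196a-2 and Mir196b lay between 2.85 and 3.79. Hottip, a long noncoding RNA at the posterior end of Hoxa, lay between 3.44 and 3.88.

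Genes that regulate Hox clusters were read from lists chosen for their role, and none was called. Counts at an unadjusted p under 0.05 in these lists stand against 4.06% higher and 6.06% lower over all probe sets tested. Among Polycomb subunits, 32 of 34 were measured, with a median of 0.05 and, at an unadjusted p under 0.05, 2 higher and 2 lower. Suz12, a core subunit of the complex that methylates lysine 27 and a gene on chromosome 11, read 10.07, 10.03 and 9.68 on WT and 9.49, 9.16 and 9.06 on Hira-null (-0.69, adjusted p = 0.275). Eed, a partner of Suz12 in that complex, read 8.14, 8.96 and 8.78 on WT and 9.33, 9.14 and 9.24 on Hira-null (0.61, adjusted p = 0.414). Both separated the lines, in opposite directions. The accessory subunits Aebp2 and Phf19 differed by 0.59 and -0.56, again without overlap.

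Trithorax proteins and lysine 27 demethylases had 14 of 15 listed genes measured, a median of 0.12, and 3 higher (4.06% of all probe sets tested) and 0 lower (6.06%) at an unadjusted p under 0.05. Kmt2c, a methyltransferase of histone H3 lysine 4, read 6.67, 7.01 and 6.9 on WT and 7.76, 7.57 and 7.52 on Hira-null (0.76, adjusted p = 0.233). Rbbp5, a shared subunit of these methyltransferases, and Kdm6b, a demethylase, differed by 0.51 and 0.38 without overlap. Ash2l, another shared subunit, differed by -0.27, also without overlap. Of the list, 3 were thus higher and 1 lower without overlap (28.6%), against 13.8% of all probe sets.

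In the retinoic acid pathway 20 of 21 listed genes were measured, with a median of 0.09, and 2 were higher and 1 lower at an unadjusted p under 0.05. The carrier Crabp1, which binds retinoic acid in the cytoplasm, read 9.15, 8.95 and 8.87 on WT and 8.26, 8.13 and 8.09 on Hira-null (-0.83, adjusted p = 0.22). The related carrier Crabp2 read 6.15, 5.67 and 5.85 on WT and 6.58, 6.29 and 6.53 on Hira-null (0.58, adjusted p = 0.34). The carriers therefore separated in opposite directions. Rdh11, a retinol dehydrogenase, differed by -0.55 with overlap (adjusted p = 0.508). Dhrs3, which reduces retinal to retinol, differed by 0.65 with overlapping groups (adjusted p = 0.487), and Cyp26a1, which degrades retinoic acid and is a classical target of it, read 3.93, 4.08 and 4.14 on WT and 3.71, 3.92 and 4.09 on Hira-null.

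Of 9 listed TALE cofactors 8 were measured, with a median of 0.12 and 1 lower and 0 higher at an unadjusted p under 0.05. Meis1, on chromosome 11, read 4.86, 4.41 and 4.68 on WT and 4.16, 4.13 and 4.41 on Hira-null (-0.42, adjusted p = 0.454). Pbx2 read 6.78, 6.23 and 6.73 on WT and 6.88, 7.27 and 6.93 on Hira-null (0.45, adjusted p = 0.506), and Pbx3 and Meis3 differed by 0.27 and 0.13 without overlap. Pknox2 differed by 0.38 with overlap. Among 6 ParaHox genes, relatives of the Hox clusters, Cdx1 read 5.71, 5.9 and 5.71 on WT and 6.01, 6.08 and 6.43 on Hira-null (0.40, adjusted p = 0.451). Gsx2 and Pdx1 differed by 0.40 and 0.15 with overlap. Cdx2, an activator of posterior Hox genes, overlapped between the lines with a difference of 0.05.

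Markers of other cells in which Hox genes are active are given beside these results. Of 20 fibroblast and feeder cell markers 14 passed the filter, and Dcn, Lum, Fap, Postn, Prrx1 and Tbx15 did not. Their summed linear level ran from 2880 to 5240 on the WT arrays and from 2560 to 3900 on the Hira-null arrays, with a median difference of -0.10. Without overlap 3 were lower (Col1a2 -0.72, Vim -0.61 and Twist2 -0.40) and 2 higher (Thy1 0.76 and Col5a1 0.08). That was 25% of the list, against 13.8% of all probe sets. The largest differences, Acta2 at -1.28 and Tagln at -1.09, came with overlapping groups. In sign, 10 markers were higher and 10 lower. Mesoderm markers (13 of 14 measured) summed to 428 to 489 on WT and 458 to 503 on Hira-null, with a median of 0.00. Neuroectoderm markers (16 of 18 measured) summed to 766 to 1140 and 562 to 1120, with a median of -0.07. Among them Pax6, a regulator of eye and forebrain, read 5.8, 6.01 and 5.89 on WT and 4.96, 4.75 and 4.37 on Hira-null (-1.21, adjusted p = 0.22), and Nes differed by -0.87 with overlap.

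Primitive endoderm markers (16 of 16 measured) were lower for 13 genes, with a median of -0.28. Their sums were 1660 to 2330 on WT and 1190 to 1680 on Hira-null, ranges that met only at their ends. Without overlap 5 were lower and 0 higher, 31.2% of the list, against 13.8% of all probe sets. The endocytic receptor gene Cubn read 7.93, 7.21 and 7.12 on WT and 5.92, 6.14 and 5.75 on Hira-null (-1.48, adjusted p = 0.22), and Dab2, Lama1 and Gata6 differed by -0.83, -0.59 and -0.55. Pluripotency markers (15 of 15 measured) summed to 18100 to 19200 on WT and 17700 to 22500 on Hira-null. Their median difference was 0.05, with 8 higher and 7 lower. Without overlap 4 were higher and 1 lower, 33.3% of the list, against 13.8% of all probe sets. Of these Tbx3, a factor of the naive state, read 7.6, 7.98 and 7.79 on WT and 9.34, 9 and 10.06 on Hira-null (1.68, adjusted p = 0.22), Klf5, Tfcp2l1 and Klf4 differed by 0.68, 0.61 and 0.41, and Klf2 by -0.52, all without overlap. The part of these markers in the Hox differences was not tested, and no marker is listed at 0.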

How the data were processed

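Total RNA, extracted with Trizol, was hybridised to 6 arrays, 3 per line. The deposited table holds log2 values made by the authors with GCRMA, per the submitters' processing notes, a background correction with normalization between arrays that would hide a change shared by most genes. Their range showed the log2 scale. Version, build and scanner signals were not used here. The platform annotation gave 21789 probe sets 1 symbol and 1621 several. RefSeq's table (GRCm38.p6) matched 21698 of the former and supplied names, chromosomes, gene order and sequences.

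Probe sets with at least 3 of 6 arrays above 3.78 (the 30th percentile) entered a two-sided fit without covariates (lmFit and eBayes of limma 3.58.1, R 4.3.3), with Benjamini-Hochberg adjustment over 25142 probe sets and a threshold of 0.05. The pipeline was tested on simulated data. A gene in a list was represented by its brightest probe set. Members and lists were chosen with earlier results of these data known. Given array by array were Hox genes past the threshold or without overlap, the 2 highest means and the largest difference in each direction per cluster. Named from other lists, with array values for some, were genes without overlap at an unadjusted p under 0.05 and up to 4 with the smallest p. Further list genes (Pou5f1, Nanog, Cyp26a1, Cdx2, Meis3, Snf8, Skap1, Hottip, Col1a2, Col5a1, Acta2, Tagln, microRNAs) were named outside this rule. Depth has no counterpart on arrays, whose number limits the precision.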

Additional observations from a re-analysis of the deposited data

How the results depend on the processing

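Among 17 alternatives, 0 Hox genes were called under any that gave a value, and 0 probe sets were called higher. The count called lower, 1 in the fit reported, was 2 with a filter at the 50th percentile (4.99), 2 with median centring, 5 with array weights, 0 with the replicate number as a block, 0 without WT array 1 and Hira-null array 3 together, and 0 to 41 when single arrays were left out, the highest without Hira-null array 2. Replicate numbers did not pair the samples (correlations of deviations -0.34, 0.17 and -0.10). The counts without overlap are taken from the array values, so the block could not alter them. The stricter filter kept 7 Hox genes, with 3 higher and 0 lower without overlap. Of those 3, Hoxb7 and Hoxd11 passed through their Hira-null arrays alone, so that count says nothing about stability. Its medians of 0.31 for Hoxd and 0.35 for posterior genes are Hoxd11 alone and Hoxb9 with Hoxd11. Leaving out single arrays gave 7 to 12 higher and 2 to 4 lower without overlap. The like shares over all probe sets were 10.8% to 12.7% higher and 10.5% to 14.1% lower. Medians without single arrays ran from 0.01 to 0.15 for central and from -0.10 to 0.11 for Hoxb genes. Leaving out both arrays gave 8 higher and 4 lower, where 18.9% of all probe sets were higher and 17.2% lower without overlap.

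Of 230 values for the 16 Hox genes given array by array under these alternatives, all stayed uncalled or untested. In sign, 220 stayed the same, 9 changed and 1 came to 0 (Hoxb1 without both arrays). Many of the 220 could not change, since the filter, the variance estimate and the block do not alter a difference of group means. The changes were in Hoxa3 (-0.13 to 0.04 without single arrays), Hoxb1 (0.01 with array weights, -0.10 to 0.03 without single arrays), Hoxa4 (-0.01 without both arrays, -0.02 to 0.17 without single arrays) and Hoxc8 (-0.13 to 0.15 without single arrays), and the cause was not tested. Hoxc13 ranged from 0.49 to 1.06 (adjusted p 0.307 to 0.734), Hoxb9 from 0.32 to 0.45, Hoxc12 from 0.25 to 0.52 and Hoxd11 from 0.21 to 0.36. Restricting medians to members past the filter, an alternative chosen after seeing the data, gave 0.05 over 31 Hox genes. Using the mean of a gene's probe sets changes nothing here, since each member has 1. Most Hox signals lie below the table's median, and 3 arrays a line and 1 clone limit what can be seen.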
